A study of Mus musculus with 29 samples.

Results

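The genes described here encode voltage-gated and related ion channels of the mouse, their auxiliary subunits and close relatives. They were chosen by symbol from the annotation of the array prints, as those beginning with Kcn (potassium), Cacn (calcium), Clcn (chloride), Scn and a digit (sodium), Hcn and a digit (cyclic-nucleotide-gated pacemaker channels), or Trpc, Trpm or Trpv and a digit (transient receptor potential channels). The rule found 80 of the 8726 genes named on the arrays. Of these, 45 belong to the potassium class, 16 to calcium, 6 to chloride, 6 to sodium, 5 to TRP and 2 to HCN. The potassium and TRP classes include a non-coding transcript, Kcnmb4os1, and an adaptor of a ubiquitin ligase, Trpc4ap, which are not channels.

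The study asked how gene expression in the hypothalamus differed after tumour cells were placed under the skin. Female BALB/c mice of 8 weeks were injected subcutaneously with 100000 4T-1 cells in 100 µl PBS, and the controls with 100 µl PBS alone. The 4T-1 line derives from a mammary tumour of the same mouse strain. The hypothalamus was taken 18, 72 or 192 h later. Each in-house printed 2-colour oligonucleotide array carried RNA of a tumour-bearing sample in 1 dye and of a PBS sample in the other, so that every value is a ratio within an array. The mice carried no stated transgene and shared strain, sex and age in both arms. The labels do not say whether a sample was 1 animal or a pool, so p-values measure only the spread between these samples.

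Ion channels set how neurons fire. Sodium channels carry the rising phase of the action potential, potassium channels repolarize the membrane and set its resting level, and calcium channels couple depolarization to transmitter and peptide release. HCN channels support rhythmic firing, CLC proteins move chloride across the plasma membrane or acidify endosomes and lysosomes, and TRP channels respond to lipids, temperature and other stimuli. In the hypothalamus, potassium and L-type calcium channels shape the firing of neurons that control feeding, body temperature and hormone release.

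Of the 29 arrays, 16 were used, from 9 biological replicates, 3 at each time (replicates 3, 4 and 5 at 18 h and replicates 1, 3 and 4 at 72 and 192 h). On the other 13 arrays the probe names given for the print did not follow the spots. Mean intensities matched by accession with the largest print correlated at 0.035 and 0.041 there, against 0.55 and 0.59 on the other prints used. Between 14.8% and 83.0% of the spots of a used array gave a ratio. Replicate 1 at 72 h and at 192 h was poly(A) RNA on 1 array with the tumour in Cy5, while the other 7 were total RNA on 2 arrays with dyes exchanged. Each replicate at 192 h was on a print of its own, so print and replicate cannot be told apart there. Values are log2 of tumour over PBS after a per-gene dye effect was subtracted, and the direction is likely rather than settled, because it was taken from the dye labels and from reading the scanner's channels A and B as Cy3 and Cy5. Ratios carry no level that can be set against that of another gene, so the tissue label was not checked against defining markers.

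No channel gene passed the test at any time, and the largest mean difference from PBS in 3 replicates was 1.48-fold. At 18 h 13 channel genes had a value in all 3 replicates and were tested, at 72 h 36 and at 192 h 32, which is 16.25%, 45% and 40% of the 80. Over all named genes the tested share was 16.5%, 41.2% and 37.5%. The number past an adjusted p of 0.05 (limma, Benjamini-Hochberg over all genes tested) was 0 of 13, 0 of 36 and 0 of 32 channel genes, where the share over all genes was 0% at each time. With an unadjusted p under 0.05 there were 0 of 13 channel genes at 18 h, 2 of 36 at 72 h and 1 of 32 at 192 h, beside 5.97%, 5.54% and 2.78% of all genes tested. These shares of channel genes lie near the background.

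The direction of the channel genes as a whole was mixed. Their median log2 ratio was -0.05 at 18 h, 0.07 at 72 h and -0.04 at 192 h, and that of all genes tested was -0.09, 0.02 and -0.002. Over the 1441 genes tested at 18 h the median was -0.23 in replicate 3, -0.03 in replicate 4 and 0.01 in replicate 5. Over all genes measured in each of these replicates it was -0.05, -0.03 and 0.01. Replicate 3 thus stood apart from the others at that time in the tested genes. A ratio above 0 was found for 5 of 13, 20 of 36 and 12 of 32 channel genes, beside 31.0%, 53.9% and 49.4% of all genes. The ratio had 1 sign in all 3 replicates for 5 of 13, 13 of 36 and 3 of 32 channel genes, beside 25.7%, 26.9% and 24.5% of all genes. The median 95% interval of a channel gene reached 0.36, 0.38 and 0.39 log2 units to either side of its mean at the 3 times. For the typical gene a smaller mean would not reach an unadjusted p of 0.05. The adjusted test asked for more: the largest mean, 0.56 for Cacng3 at 72 h, had an adjusted p of 0.732 (limma).

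**Figure D1:**
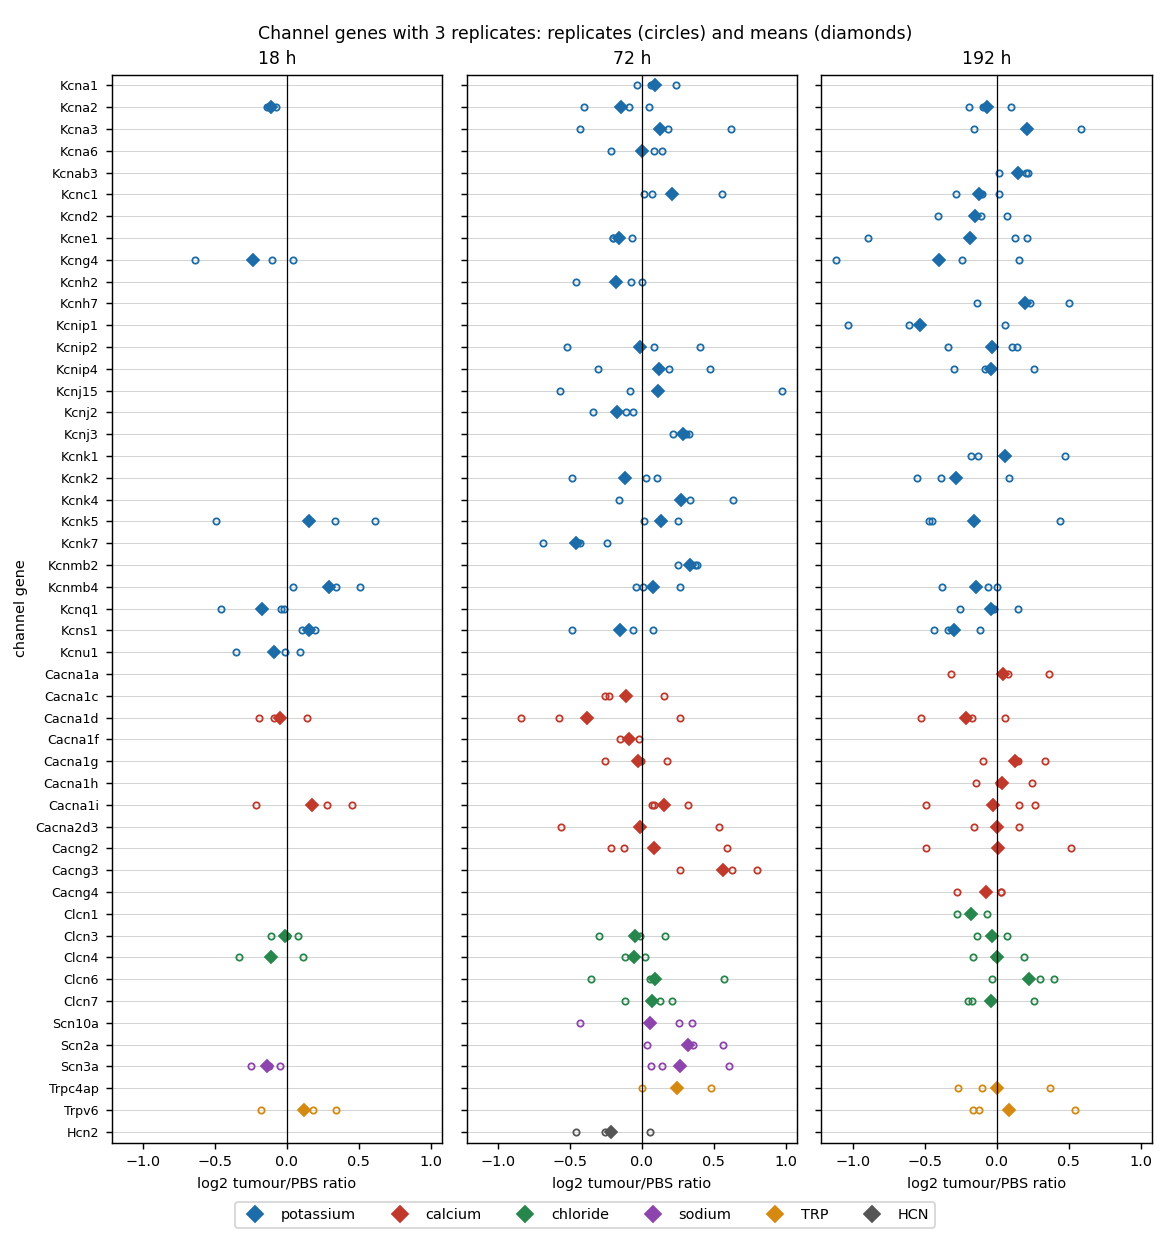
Log2 tumour/PBS ratio (horizontal axis) of each channel gene with a value in all 3 replicates at 18, 72 or 192 h (panels); circles are replicates, diamonds their means and colours ion classes. Of the genes shown, 13 have values at 18 h, 36 at 72 h and 32 at 192 h, and the replicates of most lie on both sides of 0.

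The order of the channel genes was hardly shared between replicates. Across the 13 channel genes tested at 18 h the ratios of 2 replicates correlated at -0.33 to 0.27, across the 36 at 72 h at 0.01 to 0.17, and across the 32 at 192 h at -0.20 to 0.03. The same correlations over all genes tested were -0.08 to 0.05, 0.03 to 0.18 and -0.10 to 0.05. These are correlations across genes of the same arrays, given as a description. The median SD between replicates was 0.23, 0.24 and 0.26 log2 units for the channel genes and 0.27, 0.24 and 0.25 for all genes. Of 457 values of a channel gene in a replicate, 232 came from both dye orientations and 225 from 1 array alone, where the value depends on the dye effect subtracted.

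**Figure D2:**
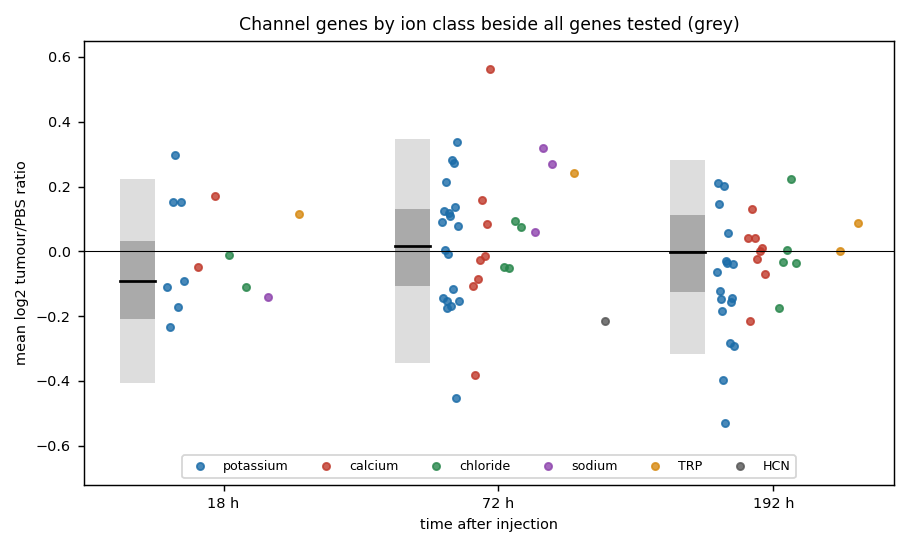
Mean log2 tumour/PBS ratio of each tested channel gene (points, coloured by ion class) at 18, 72 and 192 h; the grey bars span the 5th to 95th (light) and 25th to 75th (dark) percentiles of all genes tested and the line is their median. The means of the channel genes run from -0.53 to 0.56, and most lie within the light bars.

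Potassium channels were the largest class, with 7, 19 and 17 genes tested at 18, 72 and 192 h. Their median log2 ratio was -0.09, 0.08 and -0.12. Above 0 were 3 of 7, 11 of 19 and 4 of 17, beside 31.0%, 53.9% and 49.4% of all genes tested. At 192 h the medians of the 17 in replicates 1, 3 and 4 were -0.08, -0.11 and -0.02. In bulk tissue, fewer cells of a type and less RNA per cell cannot be told apart. At the same time 4 of 4 tested markers of oligodendrocytes and myelin were above 0, from 0.11 to 0.35, with medians of 0.46, -0.05 and 0.15 in the same replicates. Markers of neighbouring brain regions were above 0 in 4 of 4, from 0.06 to 0.21, with replicate medians of 0.14, 0.39 and -0.01. Astrocyte markers were above 0 in 3 of 3, from 0.04 to 0.22, with replicate medians of 0.20, 0.30 and -0.12. Neuronal markers stood at 3 of 6 above 0 with a median of 0.07. Of the microglial markers, Itgam (-0.18) and P2ry12 (-0.08) were below 0 and Aif1 (0.10) was above it. Other cell types had a single marker tested: Rgs5 of mural cells (-0.09), Kl of choroid plexus (0.19) and Tshb of pituitary (0.07). Of all genes tested at 192 h, 49.4% were above 0. None of the markers passed the test. The part of cell composition and of dissection in the potassium values was not tested.

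Among the pore-forming voltage-gated potassium channels, Kcns1 had values in all 9 replicates. It encodes a silent subunit that does not conduct alone and modifies channels of the Kcnb group. Its log2 ratio was 0.16, 0.20 and 0.10 at 18 h, -0.48, -0.06 and 0.08 at 72 h, and -0.43, -0.11 and -0.34 at 192 h. All 3 replicates were thus above 0 at 18 h and all 3 below 0 at 192 h, with no overlap between those times. Of all genes tested in this difference 2.26% had the replicates of the times on opposite sides of 0, as had 1 of 11 channel genes. The means were 0.15 ± 0.15 (SE) at 18 h, -0.15 ± 0.15 at 72 h and -0.29 ± 0.15 at 192 h. The difference of 192 h from 18 h was -0.45 (95% interval -0.91 to 0.01, limma p = 0.0559, adjusted p = 0.930), and that of 72 h from 18 h was -0.31 (p = 0.173, adjusted p = 0.842). With the values measured in both dye orientations alone, a setting chosen after seeing the data, the difference of 192 h from 18 h was -0.38 (p = 0.0970, adjusted p = 0.964).

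Kcng4 encodes another silent subunit. Its ratio was -0.64, -0.10 and 0.05 at 18 h and -1.11, 0.16 and -0.24 at 192 h, with means of -0.23 (p = 0.314, adjusted p = 0.829) and -0.40 (p = 0.0971, adjusted p = 0.9999). At each of these times 1 replicate was far below the others: replicate 3 at 18 h and the poly(A) replicate 1 at 192 h. Its dye effect, -0.48 on the log2 scale, ranged from -1.78 to 0.01 between the 6 replicates that gave it.

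Kcna2, which encodes a delayed rectifier of axons and nerve terminals, had ratios of -0.14, -0.07 and -0.12 at 18 h. At 72 h they were -0.40, 0.05 and -0.08, and at 192 h -0.19, 0.10 and -0.10. The replicates lay below 0 in every sample at 18 h and on both sides of 0 later. The means were -0.11, -0.15 and -0.06, and the p-values 0.453, 0.331 and 0.660.

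Other voltage-gated potassium channels at the ends of the range were Kcnq1, Kcnh2, Kcnh7, Kcna3 and Kcnc1. Kcnq1, a channel of heart and epithelia, stood at -0.02, -0.46 and -0.04 at 18 h (mean -0.17, p = 0.320). Kcnh2, which encodes the ERG channel of heart and brain, stood at 0.01, -0.07 and -0.46 at 72 h (mean -0.18, p = 0.285). In each of them 1 replicate made most of the mean. Kcnh7, a further ERG channel of neurons, gave 0.50, 0.23 and -0.14 at 192 h (mean 0.20, p = 0.252). Kcna3, a channel of lymphocytes and microglia as well as neurons, gave 0.59, -0.16 and 0.20 at 192 h (mean 0.21, p = 0.337). For both, the poly(A) replicate 1 was the highest. Kcnc1, which lets neurons fire at high rates, had 0.56, 0.01 and 0.07 at 72 h against 0.02, -0.10 and -0.28 at 192 h. The difference between these times was -0.34 (95% interval -1.02 to 0.35, p = 0.307, adjusted p = 0.9993).

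The tandem-pore potassium channels set the resting potential. Kcnk7, a member of this family that is not known to conduct alone, had the lowest mean at 72 h among the channel genes with 3 replicates, with -0.43, -0.69 and -0.24. All 3 replicates were below 0, and the mean was -0.45 (1.37-fold lower, 95% interval -0.83 to -0.08, p = 0.0239, adjusted p = 0.770). Each of these 3 values came from an array with the tumour in Cy5, and the dye effect subtracted, 0.34, rested on 1 replicate at 18 h. Without that subtraction the 3 values were -0.09, -0.35 and 0.10 and their mean was -0.11. The replicates then lay on both sides of 0.

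Kcnk5, an acid- and alkali-sensitive channel, had values in all 9 replicates, at -0.49, 0.62 and 0.33 at 18 h. They were 0.02, 0.14 and 0.25 at 72 h, and 0.44, -0.47 and -0.45 at 192 h. The replicates disagreed in sign at 18 and 192 h and were all above 0 at 72 h. The difference of 192 h from 18 h was -0.31 (p = 0.338) and from 72 h -0.29 (p = 0.363), and both intervals included 0. Kcnk2, a mechanosensitive channel, gave -0.55, -0.38 and 0.08 at 192 h (mean -0.28, p = 0.144).

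Of the inward rectifiers, Kcnj3 encodes a G-protein-gated channel by which transmitters silence neurons. Its ratios at 72 h were 0.22, 0.33 and 0.31, close together and all above 0. The mean was 0.28 (1.22-fold, 95% interval -0.07 to 0.64, p = 0.104, adjusted p = 0.954). These values, too, came from arrays with the tumour in Cy5 alone, and without the dye subtraction the mean was 0.42. Its single value at 18 h was 0.42 and that at 192 h 0.20. The spots of Kcnj3 were dim, with a mean intensity at percentile 3.2 of all genes with a value.

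Auxiliary subunits change the gating or traffic of potassium channels. Kcnmb4 encodes the neuronal beta subunit of the large-conductance calcium-activated channel. Its ratio was 0.34, 0.51 and 0.04 at 18 h, 0.27, 0.01 and -0.04 at 72 h, and -0.38, -0.06 and 0.001 at 192 h. The replicates of 18 h were all above those of 192 h. The mean at 18 h was 0.30 (1.23-fold, 95% interval -0.03 to 0.62, p = 0.0735, adjusted p = 0.770), the highest of the 13 genes tested then. The difference of 192 h from 18 h was -0.44 (95% interval -0.91 to 0.02, p = 0.0607, adjusted p = 0.930), and it was -0.22 in the values measured in both orientations alone.

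Kcnmb2 encodes a subunit that makes the same channel inactivate. It gave 0.37, 0.25 and 0.39 at 72 h, all above 0 and close together, with a mean of 0.34 (1.26-fold, 95% interval -0.02 to 0.69, p = 0.0614, adjusted p = 0.923). In replicate 3, the only 1 of the 3 measured in both orientations, the array with the tumour in Cy3 gave 0.57 and the other -0.07. Without the dye subtraction the mean was 0.21. The mean spot intensity of Kcnmb2 lay at percentile 0.70 of all genes with a value, the lowest of the 72 channel genes measured. Kcnab3, a cytoplasmic beta subunit of the Kcna channels, stood at 0.22, 0.02 and 0.20 at 192 h (mean 0.15, p = 0.347).

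Kcnip1 encodes a calcium-binding protein that traffics and tunes the A-type channels of the Kcnd group. It was the only channel gene with an unadjusted p under 0.05 at 192 h, with ratios of -1.03, -0.61 and 0.06. The poly(A) replicate 1 was the lowest and replicate 4 was slightly above 0. The mean was -0.53 (1.44-fold lower, 95% interval -0.98 to -0.08, p = 0.0250, adjusted p = 0.9999). Without the dye subtraction the 3 values were -1.56, -0.08 and 0.06, with the same mean, so that only replicate 1 was then far below 0. The dye effect, -0.53, ranged from -1.02 to -0.25 between the 3 replicates that gave it. A dimmer probe of the same gene, not used in the fit, gave 0.20, 0.34 and 0.23 in the same replicates, all above 0. The probes of Kcnip1 thus stood on opposite sides of 0 at 192 h. At 72 h the brighter probe gave 0.46 and 0.10 in replicates 3 and 4.

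Calcium channel genes were tested in 2, 8 and 8 cases at 18, 72 and 192 h, with median log2 ratios of 0.06, -0.02 and 0.01. Above 0 were 1 of 2, 3 of 8 and 4 of 8, beside 31.0%, 53.9% and 49.4% of all genes tested. The pore-forming subunits and the auxiliary subunits showed no common direction: at 72 h the medians were -0.09 (5 genes) and 0.08 (3 genes). At 192 h they were 0.04 (5 genes) and -0.001 (3 genes).

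Cacna1d encodes an L-type channel that opens near rest and drives pacemaking in neurons and endocrine cells. Its ratio was 0.14, -0.09 and -0.19 at 18 h, -0.84, -0.57 and 0.26 at 72 h, and -0.17, -0.53 and 0.06 at 192 h. At both later times 2 replicates lay below 0 and replicate 4 above it. The mean at 72 h was -0.38 (1.30-fold lower, 95% interval -0.81 to 0.05, p = 0.0772, adjusted p = 0.954). The difference of 72 h from 18 h was -0.33 (p = 0.256, adjusted p = 0.905).

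Cacna1i encodes a T-type channel of low threshold, which supports burst firing. Its ratio was 0.45, 0.28 and -0.22 at 18 h, 0.32, 0.08 and 0.07 at 72 h, and 0.15, 0.27 and -0.49 at 192 h. The replicates of the 3 times overlapped. The means were 0.17, 0.16 and -0.02, with p-values of 0.358, 0.397 and 0.897.

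Cacng3 belongs to the gamma subunits that mainly serve AMPA-type glutamate receptors as trafficking partners. Among the channel genes with 3 replicates it had the highest mean and the smallest unadjusted p, at 72 h, with 0.62, 0.26 and 0.80. All 3 replicates were above 0, and the mean was 0.56 (1.48-fold, 95% interval 0.19 to 0.93, p = 0.0068, adjusted p = 0.732). At 192 h only replicates 3 and 4 had a value, -1.01 and -1.20, both below every value at 72 h. A fit that admitted genes with 2 replicates gave a difference of 192 h from 72 h of -1.67 (95% interval -2.27 to -1.06, p = 0.00024, adjusted p = 0.377).

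The dye orientation moved with these values of Cacng3. Replicates 1 and 4 at 72 h rested on an array with the tumour in Cy5, and both values at 192 h on an array with the tumour in Cy3. The dye effect subtracted was -0.89, the mean over the 2 replicates that gave it. These were -0.13 in a replicate at 18 h and -1.66 in replicate 3 at 72 h, itself among the values tested. In that replicate, measured in both orientations, the array with the tumour in Cy3 gave 1.03 after subtraction and the other -0.50. Without the subtraction the mean was -0.03 at 72 h and -0.21 at 192 h.

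**Figure D3:**
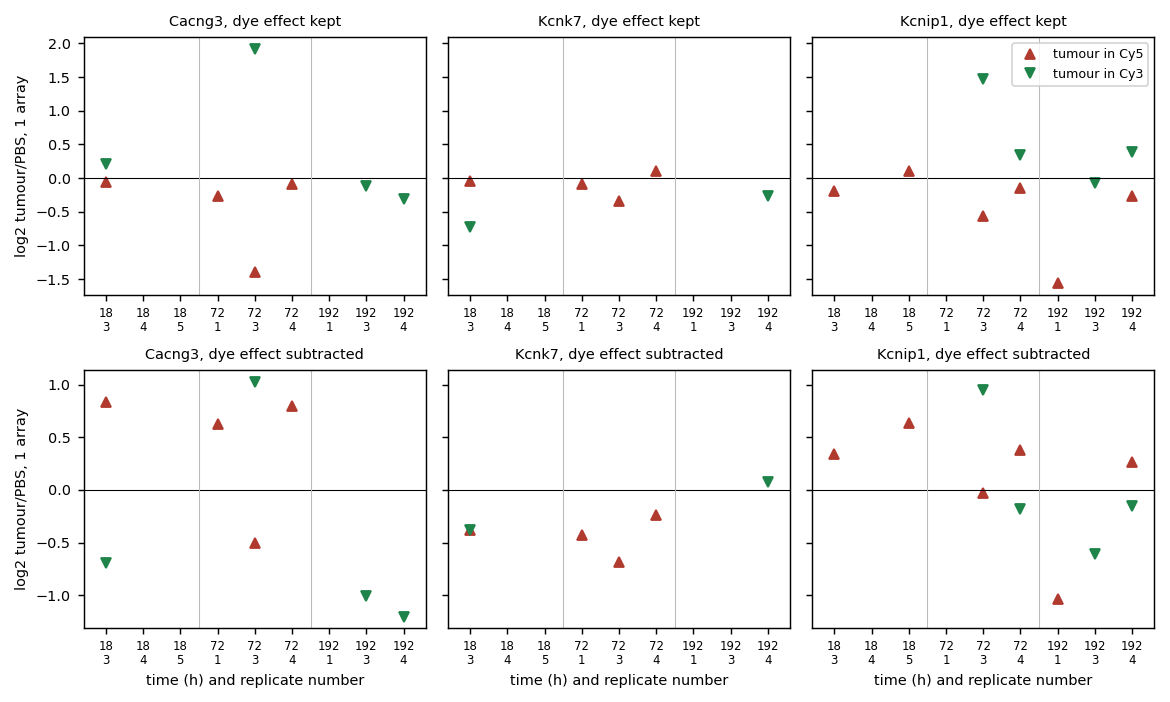
Log2 tumour/PBS ratio of Cacng3, Kcnk7 and Kcnip1 on single arrays (vertical axis) by time and replicate number (horizontal axis), before (top) and after (bottom) the dye effect of the gene was subtracted; upward triangles have the tumour in Cy5, downward triangles in Cy3. For Cacng3 the values at 72 and 192 h lie apart only after subtraction, the means before it being -0.03 and -0.21.

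Chloride channel genes lay close to 0. Of the 6 genes 2, 4 and 5 were tested at 18, 72 and 192 h, with medians of -0.06, 0.01 and -0.03, and none had an unadjusted p under 0.05. Clcn3, a chloride and proton exchanger of endosomes and synaptic vesicles, gave -0.11, 0.08 and 0.002 at 18 h, -0.01, -0.29 and 0.16 at 72 h, and -0.03, -0.14 and 0.07 at 192 h. Its means were -0.01, -0.05 and -0.03, with 95% intervals that reached from -0.32 to 0.30, from -0.36 to 0.26 and from -0.34 to 0.27. Changes beyond about 0.36 on the log2 scale thus lay outside all 3 intervals.

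Clcn4, a relative of Clcn3 with the same exchange function, gave -0.33, -0.11 and 0.11 at 18 h, 0.02, -0.11 and -0.06 at 72 h, and 0.19, -0.17 and -0.01 at 192 h. Its replicates lay on both sides of 0 at every time, with means of -0.11, -0.05 and 0.004. Clcn6, an exchanger of late endosomes in neurons, had the highest mean at 192 h among the channel genes with 3 replicates, with -0.03, 0.40 and 0.30. Its mean was 0.22 (1.17-fold, 95% interval -0.20 to 0.64, p = 0.267, adjusted p = 0.9999), and at 72 h it was 0.09.

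Sodium channel genes often gave no usable ratio, and 1, 3 and 0 of 6 were tested at 18, 72 and 192 h. At 72 h the 3 tested genes were all above 0, beside 53.9% of all genes, with a median of 0.27, and none passed the test. The other 3 sodium genes had values in 1 or 2 replicates at 72 h, which ran from -0.41 to 0.10. Scn2a encodes a main sodium channel of axons of excitatory neurons. Its ratio at 72 h was 0.57, 0.03 and 0.35, and the mean was 0.32 (1.25-fold, 95% interval -0.07 to 0.71, p = 0.0967, adjusted p = 0.954). The poly(A) replicate 1 was the highest. The spots of Scn2a were dim, with a mean intensity at percentile 3.3 of all genes with a value.

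Scn3a encodes a sodium channel most abundant in the developing brain of rodents. Its ratio was -0.05, -0.12 and -0.25 at 18 h and 0.60, 0.06 and 0.14 at 72 h, while at 192 h the 2 replicates measured gave -0.07 and 0.02. All replicates were below 0 at 18 h and above 0 at 72 h, with no overlap. Such opposite sides were seen in 4.21% of all genes tested in this difference and in 1 of 9 channel genes. Between 192 and 72 h they were seen in 2.64% of all genes and in 0 of 20 channel genes. The means were -0.14 and 0.27 (1.20-fold, limma p = 0.106). At 72 h the poly(A) replicate 1 was the highest, and the 2 replicates measured in both orientations had a mean of 0.10. The difference of 72 h from 18 h was 0.41 (95% interval -0.06 to 0.88, p = 0.0839, adjusted p = 0.842), and 0.25 in the values measured in both orientations alone.

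Of the HCN genes only Hcn2, a pacemaker channel of brain and heart, was tested, at 72 h. Its ratio was 0.06, -0.25 and -0.45, with a mean of -0.22 (p = 0.243, adjusted p = 0.991). Of the TRP class 1, 1 and 2 genes were tested. Trpv6, named because it was the only TRP channel tested, had a mean of 0.12 at 18 h and 0.09 at 192 h. Trpc4ap, which is not a channel, had a mean of 0.24 at 72 h and 0.001 at 192 h. No TRP channel was thus tested at 72 h. The interval of each included 0.

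**Figure D4:**
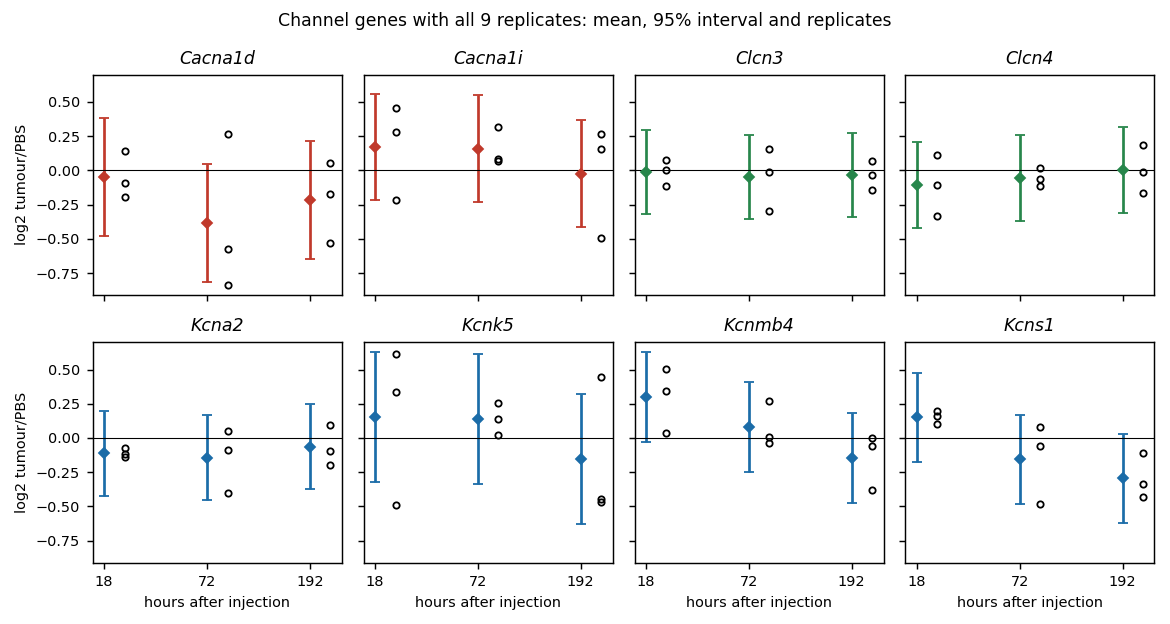
Mean log2 tumour/PBS ratio with its 95% interval (diamonds and bars) and the 3 replicates (circles) at 18, 72 and 192 h, for the 8 channel genes measured in all 9 replicates. Every interval includes 0, and Kcns1 is the only one of the 8 whose replicates are all above 0 at 18 h and all below 0 at 192 h.

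The differences between times were tested for 9 channel genes (72 against 18 h), 11 (192 against 18 h) and 20 (192 against 72 h). The number past an adjusted p of 0.05 was 0 in each, as it was for all genes (0%), and the number with an unadjusted p under 0.05 was also 0, beside 5.21%, 3.39% and 2.27% of all genes. The median difference of the channel genes was -0.03, -0.17 and -0.05, and that of all genes 0.12, 0.08 and -0.07. A difference above 0 was found for 2 of 9, 3 of 11 and 8 of 20 channel genes, beside 68.8%, 62.9% and 35.8% of all genes. The contrasts share samples, since each time enters a pair of them. The all-gene medians against 18 h include the shift of replicate 3 in the genes tested at that time. All replicates at 18 h were total RNA on the largest print, while 72 and 192 h each included a poly(A) replicate on another print. Time is thus partly mixed with RNA type, print and dye orientation. On the largest print alone the median difference of 12 channel genes between 192 and 18 h was 0.0030. That print held only replicate 4 at 192 h, so print and RNA type cannot be told apart from that replicate there.

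The 31 channel genes without a test at any time comprised 23 that had values in some replicates and 8 that had none from the probe used in the fit. The 23 were 12 potassium, 4 calcium, 1 chloride, 3 sodium and 3 TRP genes, and their values in single replicates ran from -1.59 to 1.49. Both ends belonged to Kcnma1, the pore of the large-conductance calcium-activated channel, singled out here after its values were seen: it gave -1.59 and 1.49 in replicates 3 and 4 at 192 h. Each of these came from 1 array, and the dye effect subtracted was -2.08, the mean of -3.23 and -0.93 in 2 replicates at 18 h. Before that subtraction the values were 0.49 and -0.59, so both signs turned with it. A dimmer probe of that gene gave -0.21 and -0.10 in the same samples. The 8 were Cacna2d2, Hcn3, Kcna4, Kcne2, Kcne3, Kcnh3, Kcnj8 and Kcnmb4os1. A dimmer probe of Kcnh3 did give values, which were -0.41 in replicate 3 at 18 h, 0.24, -0.10 and 0.15 at 72 h, and -0.14 in replicate 4 at 192 h.

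Genes that work beside these channels were likewise without a call. Of the ion pumps and exchangers 11 were on the arrays, and 6, 7 and 8 were tested at 18, 72 and 192 h, with medians of -0.04, 0.06 and -0.07. Fxyd1, a regulator of the sodium pump, had 0.51 ± 0.12 (SD, n = 3) at 72 h. Its limma p was 0.0070 before and 0.732 after adjustment. Of 27 other ion channel genes outside the rule, 3, 9 and 7 were tested. They lay on both sides of 0 at 18 h, from -0.34 to 0.07, and at 192 h, from -0.22 to 0.35. At 72 h all 9 were above 0, from 0.03 to 0.43, beside 53.9% of all genes. The highest of them was Clic1, an intracellular chloride channel protein, with 0.43 ± 0.13 (SD, n = 3). Its limma p was 0.0342 before and 0.811 after adjustment. Of 18 channel partners and anchoring proteins 4, 10 and 12 were tested, with medians of 0.09, 0.001 and 0.001. Lgi1, a secreted protein that links presynaptic potassium channels and AMPA receptors, was -0.39 ± 0.17 (SD, n = 3) at 72 h. Its limma p was 0.0360 before and 0.811 after adjustment. Fxyd1, Clic1 and Lgi1 each had the smallest p of their list at 72 h, so they were selected by these values. At 192 h their means were -0.13, -0.08 and -0.07. Of all genes tested at 72 h, 5.54% had an unadjusted p under 0.05 (limma). None of the genes of these 3 lists passed the test at any time.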

How the data were processed

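Tumour over PBS hypothalamus RNA was compared on 2-colour arrays, each with 3 scans. Per the file headers, the deposited spot intensities were already corrected by the authors for local background, which is listed beside them as an intensity too. The deposited saturation factor is a fraction, 1 where no part of a spot is saturated. The value tables that the authors deposited are treated as a score, since their log base and direction are not stated; they enter as an alternative. The scanner and its software were not given in the sources used here.

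Spots flagged as not measured or saturated, with a saturation factor below 1, or not above 0 in a channel were left out. Loess normalization was run scan by scan (span 0.3, 4 iterations) in R 4.3.3 with limma 3.58.1, and scans, spots of an accession and then the arrays of a replicate were averaged. Before that last mean, each probe's dye effect was subtracted (the mean Cy5 over Cy3 ratio of up to 7 replicates with exchanged dyes; SD 0.30 on the log2 scale over 7938 probes). For 12 of 72 channel genes it rested on 1 replicate. Probes never measured in both orientations have none and were left out. A gene was its brightest probe. Of 9008 accessions on all prints used, 8997 had 1 gene symbol.

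Genes with 3 replicates at a time were tested with limma, with 1 mean per time and the spread shared over 5184 genes, two-sided, and p-values were adjusted by Benjamini-Hochberg over the genes of each comparison. Gene lists were described by counts and medians. The code was tested on simulated ratios. Named channel genes are those with an unadjusted p under 0.05 or with the 4 highest or lowest means at a time, those measured in all 9 replicates, and the 3 of smallest p in each difference between times. The channel genes, the lists and this rule were chosen with earlier results of these data known. The alternatives were normexp background correction with an offset of 50, median centring, no dye subtraction, saturated spots kept, the mean over probes, 2 replicates, brighter genes, the third scan, the authors' tables, array print as a block or the largest print alone, each replicate left out and a replicate block. Same-numbered replicates of different times correlated at -0.08 to 0.18 in their deviations, so the numbers were not taken to pair samples.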

Additional observations from a re-analysis of the deposited data

Results flagged for a closer look

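For 2 channel genes every replicate of a time lay on 1 side of 0 and every replicate of another time on the opposite side. For Kcns1 the difference of 192 h from 18 h was -0.447 log2 units (limma p = 0.0559, adjusted p = 0.930), with 3 of 3 replicates above 0 at 18 h and 3 of 3 below 0 at 192 h. For Scn3a the difference of 72 h from 18 h was 0.410 (p = 0.0839, adjusted p = 0.842), with 3 of 3 below 0 at 18 h and 3 of 3 above 0 at 72 h. Neither passed the test of the difference. Replicates on opposite sides of 0 were found in 2.26% of all 973 genes tested between 192 and 18 h and in 4.21% of 998 between 72 and 18 h, against 1 of 11 and 1 of 9 channel genes. Between 192 and 72 h the share was 2.64% of 1892 genes and 0 of 20 channel genes.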

How the results depend on the processing

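No alternative brought a channel gene past the test, at any time or between times. Over all genes 1 passed at 72 h without replicate 3 of that time, and 1 between 192 and 18 h in the values of both dye orientations alone, a setting chosen after seeing the data; neither is a channel gene. The medians of the channel genes, all small, moved more. At 18 h (-0.05) the median was 0.014 with median centring, 0.025 with 2 replicates, 0.075 with the third scan (6 genes), 0.049 with the authors' tables and -0.10 with the print as a random block. At 72 h (0.07) it was -0.015 on the largest print alone. Between 72 and 18 h (-0.03) it was -0.15 with normexp, -0.20 with the third scan (4 genes), -0.13 with the authors' tables and 0.13 with both orientations alone. Between 192 and 18 h (-0.17) it was -0.027 with 2 replicates, -0.094 with the authors' tables, 0.0030 on the largest print, -0.027 with the replicate block and -0.078 with both orientations. Between 192 and 72 h (-0.05) it was -0.13 with median centring, 0.041 on the largest print and -0.17 with both orientations. Leaving out 1 replicate at a time gave -0.05 to 0.028 at 18 h, -0.015 to 0.086 at 72 h and -0.166 to -0.024 between 192 and 18 h. The sign of the 72 h median turned without the poly(A) replicate 1 and that of the 18 h median without replicate 3 or 5. The cause of these shifts was not tested.

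Single genes changed sign as follows. At 18 h, normexp gave Clcn3 0.024, and median centring gave Cacna1i -0.051, Clcn4 0.045 and Kcnq1 0.051. Without dye subtraction Cacna1d was 0.0096, and with the third scan Kcnk5 was -0.0059. The authors' tables gave Cacna1d 0.021, Clcn3 0.018, Kcna2 0.050 and Scn3a 0.050, and for Scn3a -0.011 between 72 and 18 h. Both orientations alone gave Kcnk5 -0.079. At 72 h, Cacng3 was -0.034 without dye subtraction, the authors' tables gave Clcn4 0.068 and Kcnk5 -0.0071, and the largest print gave Kcnmb4 -0.015 and Kcns1 0.0099, as did both orientations for Kcns1. At 192 h, normexp gave Clcn4 -0.025, median centring gave Cacna1i 0.11, and no dye subtraction gave Kcna2 0.058. Saturated spots kept gave Cacna1i 0.0060, and the authors' tables gave Cacna1i 0.0060 and Kcnh7 -0.030. The largest print, with replicate 4 alone at 192 h, gave Cacna1d 0.056, Clcn3 0.071, Clcn4 -0.0093, Kcnh7 -0.14, Kcnip1 0.057, Kcnk2 0.084 and Kcnmb4 0.0013, and for Kcnmb4 0.017 between 192 and 72 h. Both orientations gave Clcn4 -0.088. With replicates left out in turn, the range at 18 h was -0.054 to 0.040 for Clcn3, -0.22 to 0.0034 for Clcn4, -0.079 to 0.47 for Kcnk5 and -0.14 to 0.025 for Cacna1d. At 72 h it was -0.015 to 0.14 for Kcnmb4, -0.27 to 0.0099 for Kcns1 and -0.15 to 0.074 for Clcn3. At 192 h it was -0.088 to 0.089 for Clcn4, -0.15 to 4.4e-05 for Kcna2, -0.087 to 0.018 for Clcn3 and -0.17 to 0.21 for Cacna1i. The 3 replicates a time, with 225 of 457 values from 1 array alone, limit what these arrays could show.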

Other observations

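A further fit admitted only values measured in both dye orientations of a replicate, with at least 2 such replicates at a time. The setting and the genes named from it were chosen after seeing the data. An unadjusted p under 0.05 (limma) was found for 2 of 20 channel genes at 18 h, 1 of 25 at 72 h and 0 of 18 at 192 h. Between 192 and 18 h it was found for 1 of 9. The matching shares over all genes are not given here, and no channel gene passed the adjusted test. Cacna1g, a T-type calcium channel gene, stood at -0.44 at 18 h (limma p = 0.0229, adjusted p = 0.374), and its difference of 192 h from 18 h was 0.68 (p = 0.0132, adjusted p = 0.964). Cacng4, a gamma subunit gene, stood at 0.36 at 72 h (p = 0.0488, adjusted p = 0.9996). Kcnma1 stood at -0.38 at 18 h (limma p = 0.0481, adjusted p = 0.404). In the 2 replicates behind that value its dye effect was -3.23 and -0.93, so their arrays differed widely. Its dimmer probe gave -0.69 in replicate 3 and 0.11 in replicate 5 at 18 h, on both sides of 0. Cacng3 and Kcnk7 at 72 h and Kcnip1 at 192 h could not be fitted under this setting, having too few such replicates.

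The difference between the arrays of a replicate, with the dye effect taken from the other replicates, had a median size of 0.19 to 0.63 log2 units over the channel genes measured on both and 0.30 to 0.50 over all genes. Both ranges are over the 7 replicates with exchanged dyes.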
